A study of Mus musculus with 18 samples.

Results

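The genes described here are the mouse transcription factors whose symbol is Sox, Tbx or Klf followed by a number. The Ensembl identifiers of the deposited count tables were mapped to symbols, and a gene was kept where it was protein-coding and had 10 or more counts in at least 3 of the 18 libraries. Of 48 such symbols, 39 were kept: 16 of 19 Sox genes, 7 of 12 Tbx genes and 16 of 17 Klf genes, among 52636 genes in each table. The 9 below the limit were Klf17, Sox1, Sox2, Sox3, Tbx4, Tbx10, Tbx19, Tbx20 and Tbx22. Sox1 and Sox2 lie inside the longer transcripts Sox1ot and Sox2ot and held 0 counts in all libraries. Reads in overlapping genes appear to be missing from these tables, so those zeros say nothing about expression.

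Sox proteins bend DNA through an HMG box that binds the minor groove at ACAAT-like sites, and closely related members (groups SoxB to SoxH) often act in place of each other. T-box proteins bind through a domain shared with Brachyury and pattern limbs, heart and glands. Krüppel-like factors (Klf) carry C2H2 zinc fingers at their carboxyl end and bind GC-rich and CACCC boxes, as the related Sp proteins do. Some Klf proteins activate, some recruit the corepressor CtBP and some the corepressor Sin3. In the mammary gland Sox9 and Sox10 are known from luminal progenitor and stem-like cells, and Klf4 and Klf5 from epithelial differentiation and growth.

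RNA-seq libraries came from mammary cells sorted by flow cytometry, with 3 biological replicates in each of 6 groups. The animals were WT (wild type) or mutant in the estrogen receptor gene Esr1, with D542G or Y541S; how many alleles were mutant is not given in the sources used here. From each genotype came a mature luminal group (ML) and a group titled N, which the labels mark as a cell type of its own while naming its source as mature luminal cells, like all others. Every animal was 6 months old, carried pellets that release estradiol (E2) with progesterone (P4) and was then given the estrogen receptor antagonist giredestrant by mouth, 30 mg/kg once a day for 4 days. No library came from animals without the antagonist, so its effect on these genes was not compared. The study asks whether cells that arise under the antagonist also occur in WT tissue, and N was compared with ML for that purpose.

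Libraries held 34797778 to 49507144 gene counts. Levels below are CPM (counts scaled to a common library size, with TMM factors), which are not per length, so levels are compared between libraries and never between genes. Summed luminal markers (8 genes, none at 0) were 14538 to 30073 CPM in ML and 1328 to 5898 CPM in 8 of the N libraries, but 16651 CPM in WT N 3. Basal markers (10 genes, none at 0) summed to 14735 to 39720 CPM in those 8 and to 6137 CPM in WT N 3. Among ML libraries they summed to 155 to 448 CPM, but to 3095 CPM in Y541S ML 3, 6539 CPM in WT ML 2 and 9529 CPM in WT ML 1. For 25 of the 39 genes WT N 3 lay nearer to the mean of the WT ML libraries than to the mean of WT N 1 and 2 (log2 scale). Epidermal markers (10 genes) summed to 4280, 11175 and 13216 CPM in WT N 1, WT N 2 and Y541S N 3, to 2119 CPM in Y541S ML 3 and to at most 880 CPM elsewhere. In bulk libraries fewer cells of a type and less RNA per cell cannot be told apart.

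The N gate differed from the ML gate in 15 of the 39 genes, taking the 3 genotypes with equal weight (9 libraries against 9). Genes are called at an adjusted p under 0.05 by edgeR's quasi-likelihood test with Benjamini-Hochberg adjustment over 18298 genes. Higher in N were Sox4, Sox7, Sox15, Sox17, Klf3, Klf5, Klf9, Klf11, Klf15 and Klf16, 10 of 39 (25.6%), where 13.8% of all genes tested were called higher. Lower were Sox9, Sox10, Sox13, Sox14 and Klf14, 5 of 39 (12.8%), where 13.6% of all genes were called lower. Of these, Sox14 passed the limit on low counts only through ML libraries, as given below. By family the called genes were 4 higher and 4 lower among 16 Sox genes, 6 higher and 1 lower among 16 Klf genes and none among 7 Tbx genes. The median log2 fold change of the 39 was 0.57 (0.66 with genes at 0 in a group set to their bound), against −0.03 over all genes tested. Library values overlapped between the gates for each of the 39: no gene had all 9 N libraries above all 9 ML libraries (1.49% of all genes did) or below them (1.28%). Leaving out any 1 of the 18 libraries, 9 of these calls were kept (Sox4, Sox7, Sox9, Sox10, Sox15, Klf5, Klf9, Klf11 and Klf14), and the 15 ranged from 10 to 16 called genes. P-values measure the spread between the libraries of a group.

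**Figure D1:**
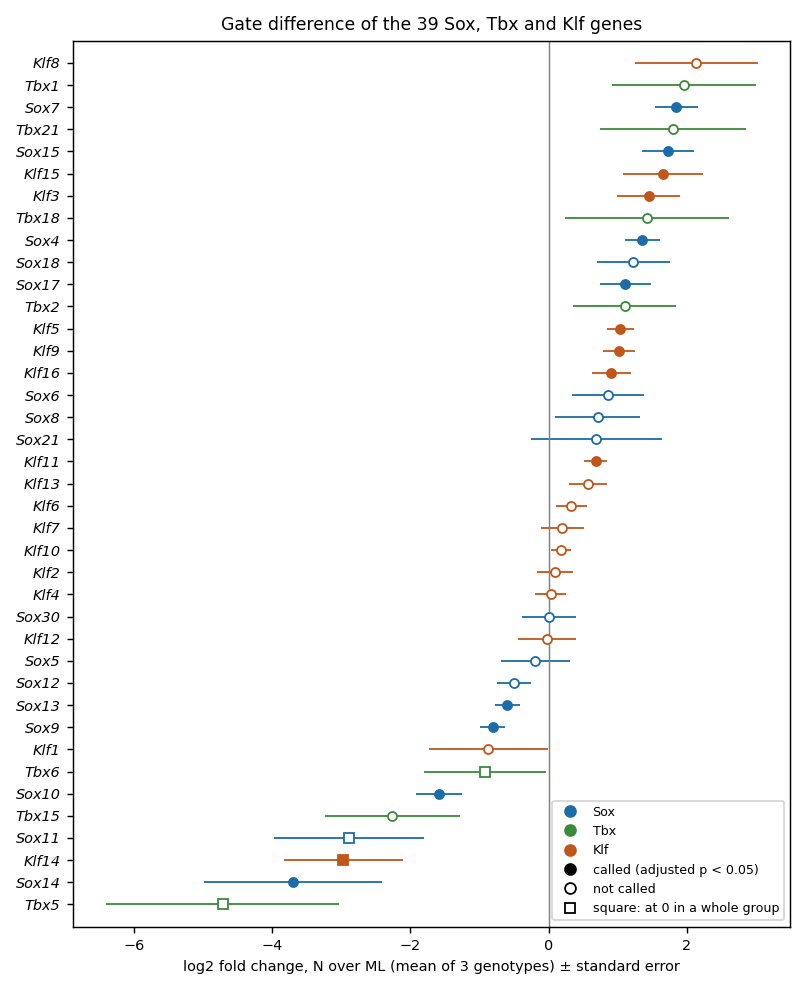
Log2 fold change of N over ML, mean of the 3 genotypes, with its standard error, for the 39 genes; filled symbols are called, and squares are genes at 0 in all 3 libraries of a group, whose fitted value depends on the prior count. Of the called genes 10 lie right of 0 and 5 left of it.

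The SoxF genes Sox7, Sox17 and Sox18 are known as regulators of vessel formation, and 2 of the 3 rose in the N gate. Sox7 (ENSMUSG00000063060, chr14:63943673-63950732, + strand of GRCm38) stood at 3.72, 3.93 and 5.08 CPM in WT ML, 9.89, 7.22 and 8.54 CPM in D542G ML and 4.82, 16.6 and 23.5 CPM in Y541S ML. In N its values were 53.2, 72 and 23.5 CPM in WT, 10.9, 11.8 and 16.3 CPM in D542G and 21.5, 31.4 and 66.3 CPM in Y541S. All 3 WT N libraries lay well above the WT ML libraries, the D542G libraries of the gates lay close to each other without overlap, and 1 Y541S N library lay below the highest Y541S ML library. Sox7 rose by 1.85 ± 0.31 on the log2 scale (3.61-fold, adjusted p = 0.000609), from 9.26 ± 6.68 CPM in ML to 34.1 ± 23.6 CPM in N (SD, n = 9 each). All 9 N libraries lay above the ML median.

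Sox17 (ENSMUSG00000025902, chr1:4490931-4497354, − strand) stood at 4.64, 3.46 and 9.38 CPM in WT ML, 2.5, 7.61 and 10.6 CPM in D542G ML and 3.83, 15.5 and 13.9 CPM in Y541S ML. Its N values were 12.5, 16.8 and 21 CPM in WT, 6.82, 10.2 and 19.7 CPM in D542G and 9.18, 32.8 and 24.3 CPM in Y541S. The gates overlapped in D542G and Y541S and did not in WT, and N exceeded the ML library of the same number in 9 of 9 pairs. The rise was 1.11 ± 0.37 (2.16-fold, adjusted p = 0.038). The call held when the library left out was WT N 1, D542G N 1, Y541S N 1, WT ML 3, D542G ML 3, Y541S ML 2 or Y541S ML 3. It was lost without each of the other 11 (adjusted p up to 0.0827), and without both WT N 3 and Y541S N 3 (0.0772). Reads of Sox17 and of the overlapping Gm37587 on the other strand cannot be told apart, since the use of strand in counting is not given.

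Sox18 (ENSMUSG00000046470, chr2:181669836-181671640, − strand) stood at 0.048, 0.968 and 2.23 CPM in WT ML, 1.9, 2.17 and 4.05 CPM in D542G ML and 0.808, 3.76 and 2.15 CPM in Y541S ML. In N it was at 2.09, 2.02 and 8.22 CPM in WT, 4.42, 1.92 and 4.88 CPM in D542G and 4.35, 6.39 and 5.89 CPM in Y541S. Only in Y541S did the gates not overlap, and N was higher in 8 of 9 same-numbered pairs. Sox18 was not called at 1.23 ± 0.53 (adjusted p = 0.0958). It was called in a fit that pairs the libraries of 1 genotype by their number (1.48, adjusted p = 0.0351) and without WT ML 3 (1.60, 0.0429). DESeq2 (1.25, adjusted p = 0.041) and limma-voom (1.08, 0.0299) also called it. Beside these genes, 7 of 10 endothelial markers rose, Vwf fell by 1.47 on the log2 scale, and their sum was 110 to 281 CPM in ML and 138 to 807 CPM in N, highest in Y541S N 2. No endothelial marker was at 0 in all libraries, and their part in the SoxF values was not tested.

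Of the SoxC genes Sox4, Sox11 and Sox12, known in progenitor cells of many tissues, Sox4 rose. Sox4 (ENSMUSG00000076431, chr13:28948919-28953713, − strand) stood at 430, 259 and 410 CPM in WT ML, 274, 261 and 355 CPM in D542G ML and 265, 398 and 282 CPM in Y541S ML. In N the values were 402, 149 and 518 CPM in WT, 1323, 1141 and 2904 CPM in D542G and 1138, 936 and 661 CPM in Y541S. Every N library of both mutants lay above every ML library, while WT N 1 and 3 lay among or just above the WT ML libraries and WT N 2 below them. Over the 3 genotypes Sox4 rose by 1.36 ± 0.25 (2.57-fold, adjusted p = 0.00115), from 326 ± 71.7 to 1019 ± 806 CPM (SD, n = 9 each). Sox4 overlaps the noncoding Gm26735 on the opposite strand.

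Sox12 was not called at −0.50 ± 0.25 (adjusted p = 0.152). It lay at 3.1 to 4.25 CPM in WT N 1, WT N 2 and the 3 Y541S N libraries and at 5.33 to 14.2 CPM in the 13 others. Without WT N 3, where it stood at 12.6 CPM, Sox12 was called at −0.80 (adjusted p = 0.00305). Limma-voom called Sox12 with all libraries (−0.68, adjusted p = 0.00473). Sox11 (ENSMUSG00000063632) held at most 47 counts in any library. Its ML values were 0, 0 and 0.0256 CPM in WT, 0, 0.0645 and 0.0207 CPM in D542G and 0.38, 0.996 and 1.06 CPM in Y541S. Sox11 in N was at 0 in all WT and Y541S libraries and at 0.0222, 0.218 and 0 CPM in D542G. It reached 10 counts in the 3 Y541S ML libraries (16, 40 and 47 counts) and in D542G N 2 (11 counts). Sox11 therefore passed the limit on low counts through Y541S ML, the group in which it is high, and its difference within Y541S is a description that supports nothing. There it was at least 11.1-fold lower in N against a floor of 3 counts per library (adjusted p = 0.0401). That call was lost without any of the 6 Y541S libraries, WT ML 2, WT ML 3, D542G ML 2, D542G ML 3 or D542G N 1 (adjusted p up to 0.125), with same-numbered libraries as pairs (0.1) and without WT N 3 and Y541S N 3 together (0.0652).

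The SoxE genes Sox8, Sox9 and Sox10 were lower in N for 2 of 3. Sox9 (ENSMUSG00000000567, chr11:112782224-112787760, + strand) stood at 1369, 1485 and 2087 CPM in WT ML, 1095, 1411 and 774 CPM in D542G ML and 1530, 1213 and 1332 CPM in Y541S ML. The N values were 684, 551 and 1320 CPM in WT, 610, 823 and 794 CPM in D542G and 756, 756 and 652 CPM in Y541S. All 9 N libraries lay below the ML median, with WT N 3 the highest of them and D542G ML 3 the lowest ML library. Sox9 fell by 0.81 ± 0.18 on the log2 scale (1.75-fold, adjusted p = 0.00379).

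Sox10 (ENSMUSG00000033006, chr15:79154908-79165240, − strand) stood at 60.3, 75.4 and 47.7 CPM in WT ML, 65, 49.7 and 121 CPM in D542G ML and 83.9, 215 and 64.8 CPM in Y541S ML. In the N gate it was at 8.9, 8.46 and 31.4 CPM in WT, 9.98, 13.7 and 7.34 CPM in D542G and 166, 147 and 66.5 CPM in Y541S. The WT and D542G N libraries all lay below every ML library, and the Y541S N libraries lay within the Y541S ML range. Sox10 fell by 1.59 ± 0.33 (3.02-fold, adjusted p = 0.00288) over the 3 genotypes, and 6 of 9 N libraries lay below the ML median. Sox8 was not called (0.71 ± 0.62, adjusted p = 0.427) at 0.481 to 5.43 CPM in ML and 0.226 to 9.92 CPM in N. Markers of Schwann cells and melanocytes, in which Sox10 is also known, summed to 87.1 to 129 CPM in ML and 69.7 to 163 CPM in N (10 genes, none at 0 in all libraries, of which Mbp gave most). Their sum was 69.7 to 86.5 CPM in the Y541S N libraries, where Sox10 was highest among N, and 1 of 7 tested, Ngfr, was called higher in N.

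The SoxD genes Sox5, Sox6 and Sox13, known to lack a transactivation domain of their own, held 1 call. Sox13 (ENSMUSG00000070643, chr1:133382303-133424377, − strand) stood at 59.3, 59.1 and 66.9 CPM in WT ML, 41.1, 39 and 36.5 CPM in D542G ML and 57, 78.5 and 47.6 CPM in Y541S ML. Its N values were 46.2, 19.4 and 34.4 CPM in WT, 42.6, 36.1 and 36.8 CPM in D542G and 30.5, 48.7 and 20 CPM in Y541S. All 9 N libraries lay below the ML median, but within D542G the gates overlapped. Sox13 fell by 0.60 ± 0.18 (1.51-fold, adjusted p = 0.0253), a call lost without D542G N 3, Y541S ML 2, Y541S N 1 or Y541S N 3 (up to 0.0589). Sox5 (−0.19 ± 0.50, adjusted p = 0.83) and Sox6 (0.86 ± 0.52, adjusted p = 0.244) were not called.

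Sox15 (ENSMUSG00000041287, chr11:69655314-69656727, + strand), the SoxG gene known from muscle progenitors, rose. Its ML values were 1.51, 2.19 and 3.46 CPM in WT, 5.14, 4.3 and 2.6 CPM in D542G and 4.99, 1.34 and 2.73 CPM in Y541S. In the N gate its values were 8.73, 12.1 and 3.13 CPM in WT, 19.1, 16.6 and 15.5 CPM in D542G and 3.04, 4.2 and 16.2 CPM in Y541S. The D542G libraries parted by gate, WT parted but for WT N 3, and in Y541S N 3 alone lay above the ML range. Sox15 rose by 1.73 ± 0.38 (3.32-fold, adjusted p = 0.00425), and all 9 N libraries lay above the ML median. It overlaps the protein-coding Mpdu1 on the opposite strand, and the count of each can hold reads of the other or lack shared ones.

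Of the SoxB genes, Sox14, known as a repressor in neurons, was called lower and Sox21 was not called (0.69 ± 0.95, adjusted p = 0.635). Sox14 (ENSMUSG00000053747, chr9:99874106-99876170, − strand) ranged from 0 to 14.5 CPM in ML (median 1.35). It was at 0 in 5 N libraries, at 0.023 to 0.244 CPM in 3 more and at 5.78 CPM in Y541S N 2, whose ML partner Y541S ML 2 held the 14.5 CPM. The fitted difference was −3.70 ± 1.29 (adjusted p = 0.046). Its call held when the library left out was WT N 2, D542G N 1, Y541S N 2, WT ML 3 or Y541S ML 3, and was lost without each of the other 13 (up to 0.0909). The value moved to −6.04 without Y541S N 2, −5.30 without D542G N 1 and −5.08 without WT N 2. Each of these leaves an N group with 0 or 1 counts in a library, so these sizes depend on the prior count. Sox14 also lost its call with no filter on low counts (0.0542) and without WT N 3 and Y541S N 3 together (0.0664). Sox30, a SoxH gene of male germ cells, stood at 0.01 ± 0.39 (adjusted p = 1).

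**Figure D2:**
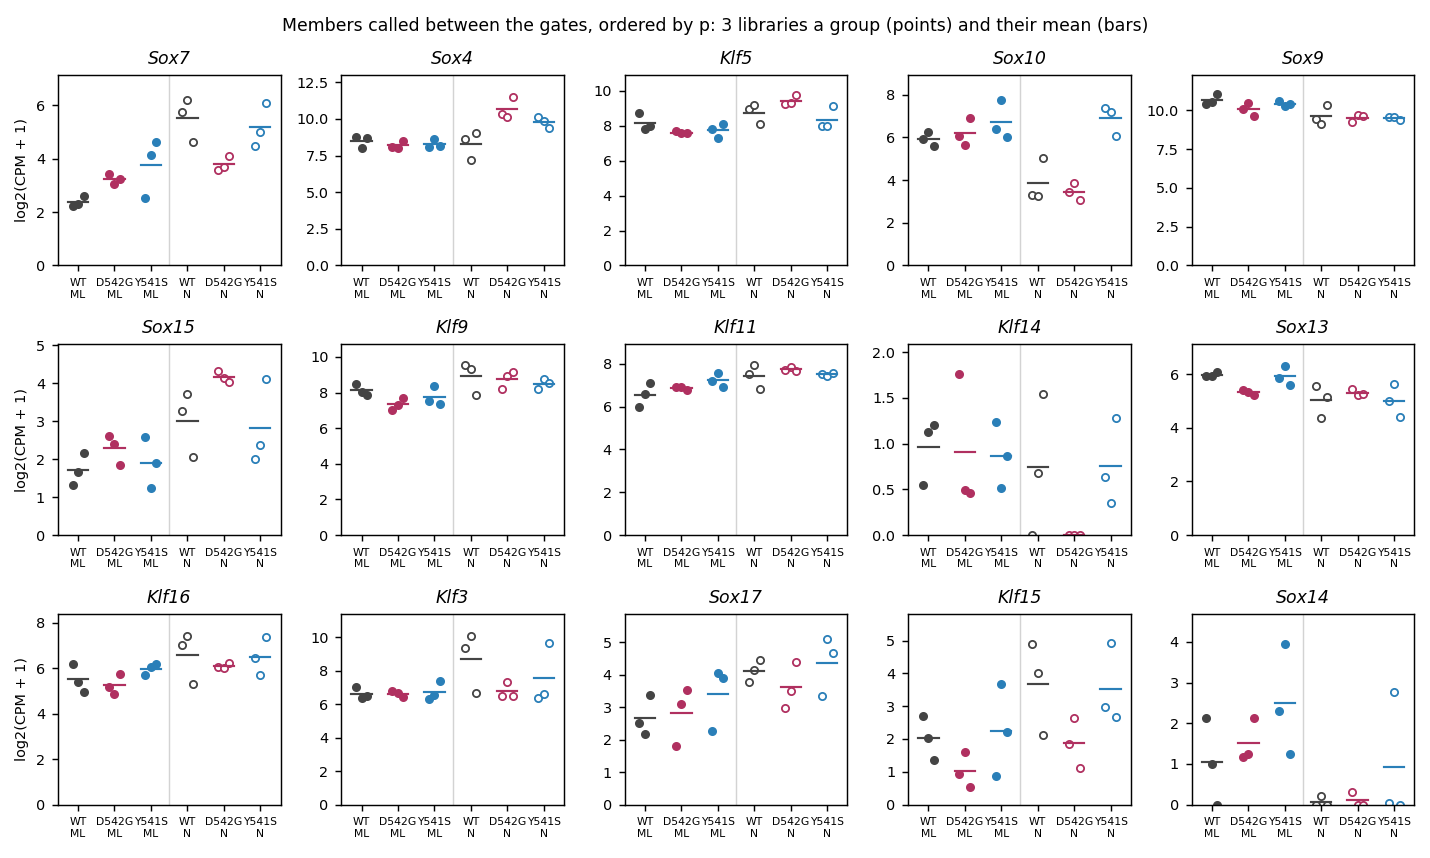
Level of the 15 called genes as log2(CPM + 1) in each of the 18 libraries (points; filled ML, open N) with the mean of each group of 3 (bars). Sox4 and Sox15 are highest in D542G N, Sox7 in WT N, and Sox10 is low in WT and D542G N and not in Y541S N.

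Among the Klf proteins known mainly as activators (Klf1, Klf2, Klf4, Klf5, Klf6 and Klf7), 1 of 6 was called. Klf5 (ENSMUSG00000005148, chr14:99298691-99315036, + strand), which promotes growth of epithelial cells, stood at 415, 223 and 249 CPM in WT ML, 205, 187 and 190 CPM in D542G ML and 222, 158 and 273 CPM in Y541S ML. Its N values were 499, 568 and 277 CPM in WT, 612, 617 and 852 CPM in D542G and 247, 255 and 547 CPM in Y541S. D542G N lay far above D542G ML, whereas the gates overlapped in WT and Y541S. Klf5 rose by 1.04 ± 0.20 (2.06-fold, adjusted p = 0.00194), with 9 of 9 N libraries above the ML median and higher than the ML library of the same number.

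Klf4 (ENSMUSG00000003032, chr4:55527143-55532466, − strand), a factor of epithelial barrier formation, was at 738, 424 and 224 CPM in WT ML, 195, 189 and 285 CPM in D542G ML and 259, 445 and 400 CPM in Y541S ML. Klf4 in N was at 378, 476 and 177 CPM in WT, 300, 304 and 374 CPM in D542G and 334, 344 and 403 CPM in Y541S. The D542G gates did not overlap, while WT and Y541S did, and the difference over the genotypes was 0.03 ± 0.23 (adjusted p = 0.951). Klf6 (ENSMUSG00000000078, chr13:5861482-5870394, + strand), an early response gene, was at 3553, 4503 and 3085 CPM in WT ML, 2547, 2919 and 3834 CPM in D542G ML and 3265, 9260 and 3045 CPM in Y541S ML. Klf6 in N was at 5814, 5287 and 2786 CPM in WT, 6160, 5796 and 6265 CPM in D542G and 3994, 4518 and 4092 CPM in Y541S. D542G N lay above D542G ML, and the difference over the genotypes was 0.33 ± 0.22 (adjusted p = 0.289). The highest library of Klf6 was Y541S ML 2, and without it the gene was called at 0.57 (adjusted p = 0.0179, with 0.0179 to 0.459 over the 18 single libraries left out). With all libraries limma-voom called Klf6 (0.50, adjusted p = 0.0232). Klf1, Klf2 and Klf7 lay between −0.87 ± 0.86 and 0.20 ± 0.31 and were not called.

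The Klf proteins known to bind Sin3 (Klf9, Klf10, Klf11, Klf13, Klf14 and Klf16) held 3 that rose and 1 that fell. Klf9 (ENSMUSG00000033863, chr19:23141226-23168134, + strand), induced by glucocorticoids and a partner of the progesterone receptor, stood at 359, 264 and 235 CPM in WT ML, 129, 158 and 203 CPM in D542G ML and 184, 335 and 160 CPM in Y541S ML. In N it stood at 747, 644 and 236 CPM in WT, 297, 487 and 572 CPM in D542G and 294, 433 and 366 CPM in Y541S. D542G N lay wholly above D542G ML, WT N 1 and 2 lay above WT ML, and WT N 3 lay beside the lowest WT ML library. Klf9 rose by 1.02 ± 0.23 (2.03-fold, adjusted p = 0.00461), with 9 of 9 N libraries above the ML median.

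Klf11 (ENSMUSG00000020653, chr12:24651274-24662789, + strand), induced by TGF-β, stood at 62.1, 96.6 and 137 CPM in WT ML, 119, 118 and 109 CPM in D542G ML and 147, 190 and 121 CPM in Y541S ML. Its N values were 186, 247 and 113 CPM in WT, 211, 229 and 205 CPM in D542G and 183, 174 and 189 CPM in Y541S. In D542G the gates did not overlap, and in Y541S the highest library was ML 2. The rise of Klf11 was 0.68 ± 0.16 (1.6-fold, adjusted p = 0.00707), and 8 of 9 N libraries lay above the ML median.

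Klf16 (ENSMUSG00000035397, chr10:80567124-80577321, − strand) stood at 71.6, 41.3 and 30.2 CPM in WT ML, 35, 28.6 and 53.2 CPM in D542G ML and 51.8, 66.5 and 71.4 CPM in Y541S ML. In N it was at 130, 173 and 38.2 CPM in WT, 65.5, 63.2 and 74.4 CPM in D542G and 87.8, 50.8 and 164 CPM in Y541S. The 3 highest values were those of WT N 1, WT N 2 and Y541S N 3. Klf16 rose by 0.91 ± 0.28 (1.87-fold, adjusted p = 0.0282), a call lost without WT ML 2, WT ML 3, WT N 1, WT N 2, D542G ML 1, D542G ML 2, Y541S ML 1 or Y541S N 3 (up to 0.063).

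Klf14 (ENSMUSG00000073209, chr6:30956023-30959078, − strand), an imprinted gene without introns known from adipose tissue, held at most 94 counts in a library. Its ML values were 0.456, 1.19 and 1.31 CPM in WT, 2.38, 0.408 and 0.372 CPM in D542G and 1.35, 0.423 and 0.813 CPM in Y541S. In N it was at 0, 0.595 and 1.92 CPM in WT, at 0 in all 3 D542G libraries and at 0.552, 0.277 and 1.43 CPM in Y541S. Klf14 was called lower in N over the genotypes (adjusted p = 0.0228), and the fitted size depends on the prior count, since D542G N held no read. In WT and Y541S the gates overlapped, with means of 0.985 CPM in ML and 0.84 CPM in N for WT. For Y541S the means were 0.864 CPM in ML and 0.754 CPM in N. Within WT the difference of Klf14 was −0.23 (adjusted p = 0.941 by edgeR), so its call over the genotypes rests on D542G. Klf10 (0.18 ± 0.14, adjusted p = 0.366) and Klf13 (0.57 ± 0.27, adjusted p = 0.129) were not called, and Klf13 was called with same-numbered libraries as pairs (0.58, adjusted p = 0.0147). Klf13 was also called by limma-voom (0.77, adjusted p = 0.00276), and by edgeR without WT ML 1 (0.81, 0.0218) or WT N 3 (0.70, 0.0364).

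The Klf proteins known to bind CtBP (Klf3, Klf8 and Klf12) held 1 call. Klf3 (ENSMUSG00000029178, chr5:64803388-64832901, + strand) stood at 131, 83.7 and 88.2 CPM in WT ML, 108, 102 and 87 CPM in D542G ML and 79.7, 93.3 and 165 CPM in Y541S ML. In N it was at 656, 1089 and 101 CPM in WT, 90.7, 160 and 89 CPM in D542G and 82.6, 95.9 and 811 CPM in Y541S. Among the N libraries only WT N 1, WT N 2 and Y541S N 3 lay outside the ML range, and they are the 3 libraries with the highest sum of epidermal markers. Klf3 rose by 1.45 ± 0.46 (2.73-fold, adjusted p = 0.0316), with 6 of 9 N libraries above the ML median. It overlaps the annotated transcripts Gm20033 and C230096K16Rik.

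The call of Klf3 held when the library left out was WT N 3, D542G N 1, D542G N 3, Y541S N 1, Y541S N 2, WT ML 1 or Y541S ML 3, and was lost without each of the other 11 (0.0513 to 0.0876). Without Y541S N 3 its value was 0.83 (0.0876), and with same-numbered libraries as pairs it was not called (adjusted p = 0.0803). Among N libraries Klf16, Sox6, Sox7, Sox21 and Tbx1 were also highest in WT N 1, WT N 2 and Y541S N 3, and Klf4 was by a small margin. Sox6 stood at 61.9, 77.8 and 65.1 CPM there and at 1.8 to 14 CPM in the other 6 N libraries. Sox21 stood at 18.3, 22.5 and 20.2 CPM there and at 1.29 to 11.8 CPM in the other 6. In ML, Sox21 was highest in WT ML 1 (34 CPM) and Y541S ML 3 (27 CPM). Of the 10 epidermal markers 9 were tested and 1 was called, Krt1 (4.27 ± 1.49, adjusted p = 0.0457). The part of epidermal RNA in these Sox, Tbx and Klf genes was not tested. Klf8 (2.14 ± 0.89, adjusted p = 0.086) and Klf12 (−0.02 ± 0.42, adjusted p = 0.997) were not called. DESeq2 called Klf8 (2.16, adjusted p = 0.0264), as did edgeR without Y541S N 2 (2.34, 0.0245) or WT N 3 (2.34, 0.02).

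**Figure D3:**
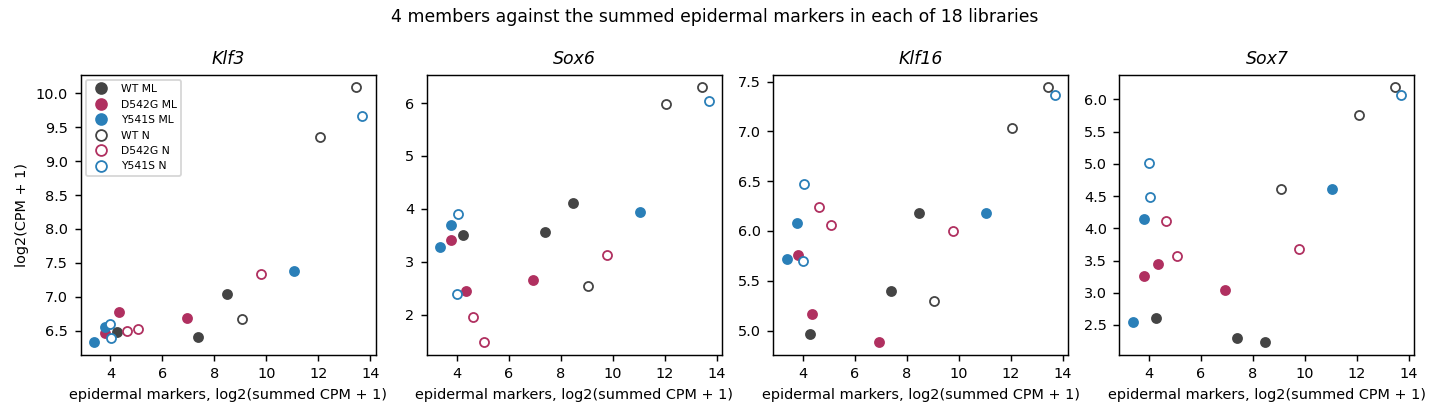
Level of Klf3, Sox6, Klf16 and Sox7, as log2(CPM + 1), against the summed level of 10 epidermal markers, as log2(summed CPM + 1), in each of the 18 libraries (filled ML, open N). WT N 1, WT N 2 and Y541S N 3 lie at the upper right in each panel, with Klf3 at 656, 1089 and 811 CPM.

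Klf15 (ENSMUSG00000030087, chr6:90462576-90475238, + strand), a glucocorticoid-induced regulator of metabolism, ranged from 0.434 to 11.7 CPM in ML (median 2.06) and from 1.17 to 29.7 CPM in N (median 5.31). N exceeded the ML library of the same number in 9 of 9 pairs, although the gates overlapped in each genotype. It rose by 1.66 ± 0.58 (3.16-fold, adjusted p = 0.0455), a call lost with no filter on low counts (0.0547). The call held when the library left out was WT N 3, D542G N 3, Y541S N 1, Y541S N 3, WT ML 1, D542G ML 2 or Y541S ML 2, and was lost without each of the other 11 (up to 0.11).

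Sequence upstream of the start was available in the RefSeq table of GRCm38.p6 for 27 of the 39 genes. The 250 bases before the annotated start are shown for Klf9, Klf15 and Sox14, called genes whose window touches no annotated gene, to set 2 that rose beside 1 that fell. Capitals mark CACCC or its reverse complement GGGTG, the box that Klf proteins bind. Windows are chr19:23140976-23141225 (+ strand) for Klf9, chr6:90462326-90462575 (+ strand) for Klf15 and chr9:99876171-99876420 (− strand) for Sox14.
Klf9: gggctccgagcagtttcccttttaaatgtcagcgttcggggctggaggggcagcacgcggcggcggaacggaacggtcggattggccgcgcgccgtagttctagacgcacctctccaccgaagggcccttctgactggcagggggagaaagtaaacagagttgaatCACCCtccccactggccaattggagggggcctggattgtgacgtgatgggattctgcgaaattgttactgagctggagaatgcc
Klf15: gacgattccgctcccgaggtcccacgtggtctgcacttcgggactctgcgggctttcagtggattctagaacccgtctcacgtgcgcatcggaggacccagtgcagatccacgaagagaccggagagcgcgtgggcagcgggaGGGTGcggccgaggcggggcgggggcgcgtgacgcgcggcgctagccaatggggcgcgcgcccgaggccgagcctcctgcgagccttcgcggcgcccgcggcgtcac
Sox14: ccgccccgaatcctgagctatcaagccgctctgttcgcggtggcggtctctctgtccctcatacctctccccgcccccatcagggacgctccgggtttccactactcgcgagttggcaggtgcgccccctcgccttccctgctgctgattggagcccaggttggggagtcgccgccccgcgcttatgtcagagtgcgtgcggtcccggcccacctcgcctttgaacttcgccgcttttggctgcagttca
Klf9 and Klf15 hold 1 match each and Sox14 holds 0. Of 32851 windows of this length in the table, 52% hold at least 1 match on either strand, so a match is a description of letters and not a binding site. The Sox motif ACAAT (either strand) occurs 2 times in the Klf9 window and 0 times in the others, and 27.7% of all windows hold it.

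No Tbx gene was called between the gates by edgeR in any genotype or in their mean. In the mean of the genotypes 2 of 7 had an unadjusted p under 0.05 (Tbx5 and Tbx15), DESeq2 called 1 (Tbx5) and limma-voom 3 (Tbx1, Tbx2 and Tbx5). Among N libraries Tbx5 reached 10 counts only in Y541S N 2 (56 counts) and Tbx15 only in D542G N 2 (83 counts). Both therefore passed the limit on low counts through ML, the gate in which they are higher. Their differences are a description that supports nothing. Of the 7, only Tbx1 and Tbx2 reached 10 CPM in any library. Tbx2 (ENSMUSG00000000093, chr11:85832551-85841948, + strand), a repressor active in mammary development, stood at 0, 0.332 and 2.38 CPM in WT ML, 4.58, 1.25 and 2.69 CPM in D542G ML and 0.808, 3.14 and 1.72 CPM in Y541S ML. In N it was at 0.201, 1.27 and 0 CPM in WT, 18.6, 18.7 and 24.8 CPM in D542G and 5.85, 3.07 and 5.13 CPM in Y541S. The 3 D542G N libraries lay above all 15 others, and WT N lay within the range of WT ML. Tbx2 stood at 1.10 ± 0.75 over the genotypes (adjusted p = 0.3).

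Tbx1, a gene of pharyngeal and hair follicle development, was at 88.7, 30.8 and 8.09 CPM in WT N and 22.3, 12.7 and 0.282 CPM in WT ML. It lay at 0 to 1.48 CPM in D542G ML, 2.07 to 2.38 CPM in D542G N, 0 to 6.17 CPM in Y541S ML and 3.43 to 14.7 CPM in Y541S N. N exceeded the same-numbered ML library in 9 of 9 pairs, and the difference was 1.96 ± 1.04 (adjusted p = 0.177). It was called with those libraries as pairs (3.60, adjusted p = 0.0225), without D542G ML 2 (4.42, 0.0355) and without Y541S ML 3 (3.48, 0.0292). Without D542G ML 2 the D542G ML libraries left held 0 counts, so the 4.42 depends on the prior count. Without Y541S ML 3 the Y541S ML libraries left held 0 and 7 counts. Among N libraries the level of Tbx1 was highest in WT N 1, WT N 2 and Y541S N 3, which held the highest sums of epidermal markers. Tbx5 was at 0 in 8 of 9 N libraries, had at most 88 counts in a library and was not called (adjusted p = 0.0602). Tbx6, Tbx15, Tbx18 and Tbx21 stayed at or under 1.64 CPM in every library and were not called.

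**Figure D4:**
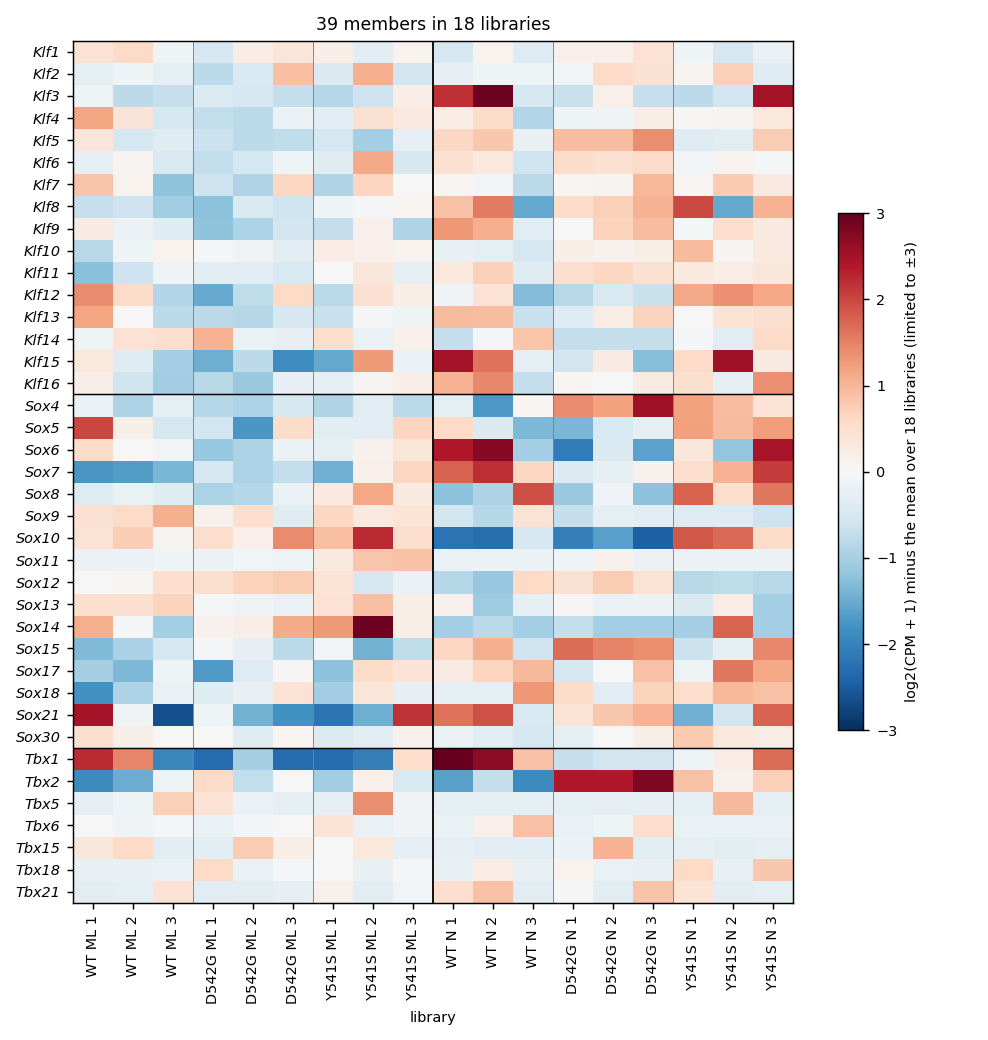
Each cell is the log2(CPM + 1) of a gene in a library minus the mean of that gene over the 18 libraries (colour limited to ±3), for the 39 genes in 3 family blocks and with ML libraries left of the line. Tbx2 and Sox4 stand out in D542G N, Sox10 is low in WT and D542G N, and Klf3 and Sox6 are high in WT N 1, WT N 2 and Y541S N 3.

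Within WT, N and ML differed in 1 of 39 genes by edgeR: Sox7 rose by 3.54 ± 0.57 (11.7-fold, adjusted p = 0.0064), from 4.24 ± 0.73 to 49.6 ± 24.5 CPM (SD, n = 3 each). Of all genes 2.14% were called higher and 1.39% lower in WT. Without WT N 3, whose luminal and basal marker sums lie within the ML range, 9 of the 39 were called in WT, where 15.5% of all genes were. Without WT N 3 and Y541S N 3 together 11 were called, where 17.4% of all genes were. Without WT N 3 the values were −1.42 for Sox9 (adjusted p = 0.00366), −2.81 for Sox10 (0.00572) and 3.11 for Klf3 (0.0134), against −0.95 ± 0.30, −1.91 ± 0.58 and 2.60 ± 0.84 with it. With same-numbered libraries as pairs, 3 were called in WT (4.92% of all genes): Sox7, Sox9 (−1.03, 0.0399) and Sox17 (1.62, 0.0258). Sox4 stood at −0.04 ± 0.42 in WT (adjusted p = 0.97).

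Within D542G, 3 genes rose (4.71% of all genes did) and 2 fell (4.49% of all genes did). Sox4 rose by 2.59 ± 0.45 (6.04-fold, adjusted p = 0.00284), Klf5 by 1.84 ± 0.36 (3.57-fold, 0.00626) and Klf9 by 1.47 ± 0.40 (2.77-fold, 0.034). Sox10 fell by 2.93 ± 0.60 (7.6-fold, 0.00815), from 78.5 ± 37.4 to 10.3 ± 3.17 CPM (SD, n = 3 each). Klf14 fell at least 16.1-fold by mean CPM against a floor of 3 counts per library (adjusted p = 0.0191), or at least 5.96-fold without D542G ML 1. The call of Klf9 was lost without D542G ML 1, ML 2, N 2 or N 3 (up to 0.137), that of Sox10 without D542G N 3 (0.0527), and that of Klf14 without D542G ML 1, N 1, N 2 or N 3 (up to 0.0713). Sox4 and Klf5 kept theirs with each library left out.

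Within Y541S, Sox4 rose by 1.53 ± 0.43 (2.89-fold, adjusted p = 0.0458), 1 of 39 where 4.22% of all genes rose. Sox11, described above, was the 1 of 39 called lower, where 2.73% of all genes fell. The call of Sox4 was kept only without WT N 2, WT N 3, D542G N 3 or Y541S N 3, and it was lost without any other 1 library (up to 0.169) and with no filter on low counts (0.0559). With same-numbered libraries as pairs 4 genes were called in Y541S (8.68% of all genes): Sox4, Sox7 (1.52, 0.0486), Sox9 (−0.91, 0.0421) and Sox13 (−0.95, 0.0397). Sox10 stood at 0.06 ± 0.56 (adjusted p = 0.972).

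**Figure D5:**
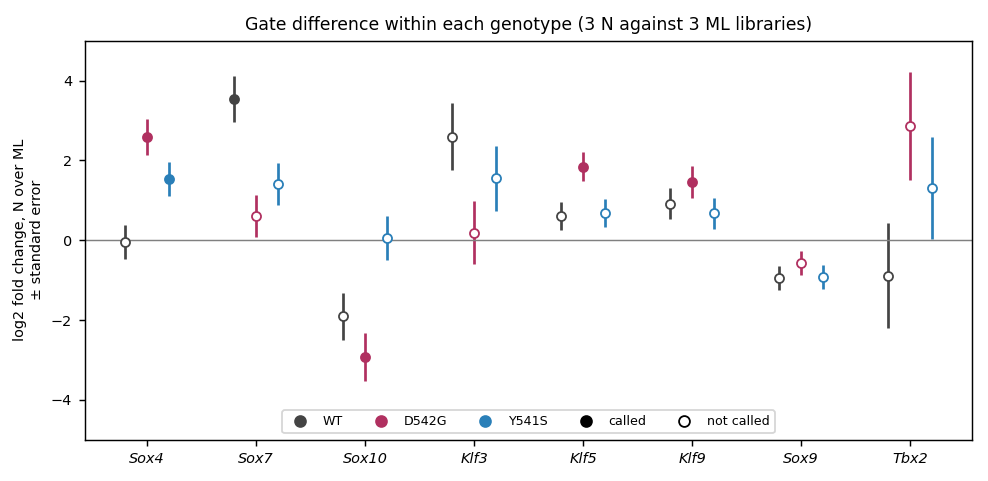
Log2 fold change of N over ML with its standard error for 8 genes within WT, D542G and Y541S (3 libraries a group); filled points are called. Sox4 lies at −0.04 in WT, 2.59 in D542G and 1.53 in Y541S, and Sox10 at −1.91, −2.93 and 0.06.

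Whether the gate difference itself differed between genotypes was tested by interaction terms, with 0 of 39 genes called by edgeR in each. Of all genes 0.109% were called for D542G against WT, 0% for Y541S against WT and 0.109% for D542G against Y541S. At an unadjusted p under 0.05 the 39 genes held 4, 6 and 6; DESeq2 called 3, 1 and 2 (2.21%, 1.01% and 1.8% of all genes) and limma-voom 3, 1 and 1 (6.85%, 1.83% and 1.44% of all genes). The difference of Sox4 between D542G and WT was 2.63 ± 0.61 (adjusted p = 0.129), and 3.00 without WT N 3 (0.0437; 0.0437 to 0.361 over the 18 single libraries left out). DESeq2 gave 0.00331 and limma-voom 0.0132 for it. That of Sox7 was −2.94 ± 0.75 (0.169) and that of Klf3 −2.41 (0.468), with −3.28 (0.022) and −2.92 (0.00925) without WT N 3 and Y541S N 3. For Sox10, D542G minus Y541S was −2.98 ± 0.81 (0.241), or −3.29 without those libraries (0.0411), and Y541S minus WT was 1.97 ± 0.80 (0.538), or 3.18 without them (0.0254). Without WT N 3 and Y541S N 3 the epidermal marker sums left were 4280 and 11175 CPM in WT N. They were 23.9 to 880 CPM in D542G N and 15.4 and 15 CPM in Y541S N. The part of epidermal RNA in these genotype differences was not tested. Comparisons that share libraries are not independent.

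Between genotypes in the N gate, Sox4 was higher in D542G than in WT by 2.33 ± 0.44 (5.02-fold, adjusted p = 0.0162), at 1789 ± 970 against 356 ± 189 CPM (SD, n = 3 each). Klf14 was lower in D542G than in WT N, at least 12.8-fold against the floor (adjusted p = 0.0486) or at least 4.54-fold without WT N 3. Hence 2 of 39 were called, where 2.43% of all genes were. The call of Sox4 was lost without D542G N 3 (1.80, 0.0843) or WT N 1 (2.43, 0.0554). That of Klf14 held when WT N 1 or Y541S N 3 was left out and was lost without each of the other 16 (up to 0.163), and limma-voom did not call it (0.32). Tbx2 was at 20.7 ± 3.57 against 0.489 ± 0.681 CPM, a difference of 5.40 ± 1.53 that edgeR did not call (adjusted p = 0.0781, 0.0383 to 0.212 with a library left out), while DESeq2 (0.000517) and limma-voom (0.00093) did. Among the 39, Sox6 (−3.53 ± 0.99, 0.0751) and Sox7 (−1.93 ± 0.53, 0.0728) were lower in D542G N without being called, and were called without WT N 3 (−4.07, 0.0139 and −2.27, 0.0212). The WT N libraries then left had epidermal marker sums of 4280 and 11175 CPM, and D542G N had 23.9 to 880 CPM. The part of epidermal RNA in the Sox6 and Sox7 differences was not tested.

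Sox10 was the gene called between Y541S N and each of the other N groups. It was higher than in WT N by 2.96 ± 0.60 (7.78-fold, adjusted p = 0.0291), 1 of 39 called where 1.14% of all genes were. D542G N lay below Y541S N by 3.61 ± 0.62 (12.3-fold, adjusted p = 0.00918 by edgeR), 1 of 39 where 1.43% of all genes were called. Y541S N held 127 ± 52.9 CPM, WT N 16.3 ± 13.1 CPM and D542G N 10.3 ± 3.17 CPM (SD, n = 3 each), and no Y541S N library overlapped the others. Part of the basal marker list moved with this difference. Of 10, 3 were called higher in Y541S N than in WT N (median log2 difference 2.46). In D542G N, 3 were called lower than in Y541S N (median −3.05), against −0.04 over all genes in each comparison. Krt5, Krt14, Krt17 and Trp63, named after their values were seen, overlapped between Y541S N and WT N. Krt5 was at 4662 to 11027 CPM in Y541S N and 1668 to 14862 CPM in WT N. The list summed to 21367 to 37210 CPM in Y541S N and 6137 to 39720 CPM in WT N. The smooth muscle actin gene Acta2 of that list, named after its values were seen, stood at 2437 to 4639 CPM in Y541S N and at 104 to 581 CPM in the other N libraries. The part of these markers in the Sox10 values was not tested. The call against WT was lost without WT N 1, WT N 2, Y541S N 1 or Y541S N 2 (up to 0.123), and without WT N 3 the value was 3.86 (0.00631). That against D542G was lost without D542G N 1 (0.0734) or D542G N 3 (0.0794).

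Between genotypes in the ML gate no Sox, Tbx or Klf gene was called by edgeR, DESeq2 or limma-voom. Of all genes 0% were called by edgeR for D542G against WT, 0% for Y541S against WT and 0% for D542G against Y541S. At an unadjusted p under 0.05 there were 3, 3 and 2 of the 39, among them Klf4 (−1.05 ± 0.39 in D542G against WT) and Sox7 (1.82 ± 0.54 in Y541S against WT).

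Genes tied to these families by function were read in the comparison over the 3 genotypes. In it 13.8% of all genes tested were called higher and 13.6% lower. Of the Sp factors, which bind the same boxes as Klf proteins, 2 of 6 tested rose: Sp3 by 0.74 ± 0.12 (adjusted p = 0.000639) and Sp4 by 0.75 ± 0.15 (0.00198). Sp3 lay at 42.5 to 75.8 CPM in ML and 79.3 to 138 CPM in N, without overlap. Of 5 other HMG box and T-box genes tested, Tcf7l2, a mediator of Wnt signals, fell by 1.42 ± 0.24 (0.000663) and Tcf7l1 rose by 0.74 ± 0.24 (0.0365). The call of Tcf7l1 was lost without WT N 1, WT ML 2, Y541S N 1, Y541S N 2, Y541S ML 1, Y541S ML 3 or any D542G library other than ML 3 (up to 0.0795). The median of these lists was −0.11 and 0.01, against −0.03 over all genes.

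Of 18 corepressors and coactivators tested, 4 rose and 2 fell (median 0.03), where 13.8% of all genes rose and 13.6% fell. The acetyltransferase Kat2b fell by 1.02 ± 0.18 (adjusted p = 0.000818) and the deacetylase Hdac1 by 0.52 ± 0.11 (0.00265), while its relative Hdac2 rose by 0.72 ± 0.14 (0.00223). Of 9 genes known as targets of SoxE factors, Erbb3, the neuregulin receptor subunit, fell by 1.45 ± 0.19 (7.83e-05) and the gap junction gene Gjb1 by 2.97 ± 0.78 (0.0115). Erbb3 in N stood at 134, 155 and 223 CPM in WT, 98, 90.4 and 55.4 CPM in D542G and 48.4, 56 and 106 CPM in Y541S. Col2a1, of the same list (median 0.21), was called higher and lost its call without Y541S N 3 (adjusted p 1). Of 7 genes known as targets of Klf2 or Klf4, 3 rose (median 1.28): Cdkn1c by 2.07 ± 0.25 (4.5e-05), Thbd by 1.88 ± 0.46 (0.00749) and Cdkn1a by 1.72 ± 0.39 (0.00486), while Klf2 stood at 0.10 ± 0.26 and Klf4 at 0.03 ± 0.23.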

How the data were processed

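RNA was taken from sorted mouse mammary cells and libraries were made with Nextera XT, per the labels' protocols, in 18 libraries of 6 groups. The authors deposited whole-number read counts per Ensembl gene. The genome was GRCm38, per the submitters' processing notes. Which aligner and counter were run, and whether strand was used, is not given in the sources used here, and the tables appear to leave out reads shared by overlapping genes. Identifiers were matched to GENCODE M21, and 1 Tbx gene is not reported here.

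The members and the lists were chosen with earlier results of these data known. Genes with 10 or more counts in enough libraries and 15 in all (edgeR's filterByExpr) were kept, leaving 18298. Counts were scaled by TMM and fitted in edgeR 4.0.16 (R 4.3.3) by the quasi-likelihood test with 6 group means (12 residual degrees of freedom, biological coefficient of variation 0.652). P-values were adjusted by Benjamini-Hochberg over all genes, and a gene was called below 0.05. The standard error is the absolute log2 fold change over the square root of F. Groups at 0 were set to a floor of 3 counts per library. On simulated counts for these 18298 genes the comparison of the gates over the 3 genotypes recovered 96% of genes changed 4-fold. The changed genes were drawn only from those above a set mean level, so the 96% does not cover genes as low as Sox11 or Klf14. Simulated spread followed the fitted trend and held no outlying library.

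Every library's value was given for the 12 members with the smallest p-values among those called over the genotypes, for members called in another comparison, and for Sox4, Sox9, Sox10, Sox17, Sox18, Tbx2, Klf4, Klf5, Klf6 and Klf9 whatever their values; of each related list the called genes with the 3 smallest p-values were named. Values of Sox6, Sox12, Sox21 and Tbx1, and the changes named in the ML gate, were chosen after they were seen. Alternatives were DESeq2 1.42.0, limma 3.58.1 (voom with quality weights), RLE scaling, other filters, each library left out, WT N 3 and Y541S N 3 left out together, and a replicate block. Whether library numbers pair N with ML was checked from the deviations of 10000 genes: the 9 same-numbered pairs correlated at 0.166 to 0.553 and 18 others at −0.455 to 0.192. The pairing comes from the data, not the labels. The depth of at least 34797778 counts makes the floor of 3 counts under 0.1 CPM, and it covers counting error only.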

Additional observations from a re-analysis of the deposited data

How the results depend on the processing

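Percentages are the share of all genes called in the same fit. Over the 3 genotypes 15 genes were called (27.4%), 13 (16.1%, no filter) to 22 (42%, limma-voom) under the other settings and 10 to 16 with a library left out. Within WT (1 called, 3.53%) DESeq2 called 5 (11.3%), limma-voom 16 (28.2%) and the replicate block 3 (4.92%), and 11 were called without WT N 3 and Y541S N 3 (17.4%), with 1 to 9 when a library was left out. Within D542G (5 called, 9.2%) limma-voom called 14 (32%), with 2 to 7 when a library was left out. Within Y541S (2 called, 6.95%) no filter gave 0 (3.79%), a filter of 10 counts in 9 libraries 1 (8.62%), DESeq2 4 (13.6%), the replicate block 4 (8.68%) and leaving out both libraries 1 (9.64%), with 0 to 3 when a library was left out. In the N gate D542G against WT (2 called, 2.43%) gave 1 with no filter (1.01%), 6 by DESeq2 (9.37%), 9 by limma-voom (22.4%) and 6 without both libraries (9.65%), with 0 to 5 when a library was left out. Y541S against WT (1 called, 1.14%) gave 4 by DESeq2 (5.82%), 6 by limma-voom (10.6%) and 6 without both (10%), with 0 to 2. D542G against Y541S (1 called, 1.43%) gave 7 (6.23%), 9 (6.67%) and 4 (2.96%), with 0 to 4. The interactions (0 called) gave, without both libraries, 3 for D542G minus WT (2.13%), 3 for Y541S minus WT (4.18%) and 1 for D542G minus Y541S (0.5%), by DESeq2 3, 1 and 2 and by limma-voom 3, 1 and 1, with 0 to 1, 0 to 0 and 0 to 0 when a library was left out. In the ML gate leaving out a library gave 0 to 0 in each comparison. No called value changed sign. The causes of these changes were not tested.

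The replicate block, which pairs same-numbered N and ML libraries, ended the calls of Klf3 and Sox11 and added those of Klf13, Sox18 and Tbx1 over the genotypes, of Sox9 and Sox17 in WT and of Sox7, Sox9 and Sox13 in Y541S. It left 17 called over the genotypes, 5 in D542G and 0 in each interaction, and it changed no other call among the members. Each group holds 3 libraries. Sox11, Klf14, Tbx5 and Tbx6 held at most 94 counts in any library, so their zeros are limited by depth, while Sox14 varied from 0 to 581 counts between libraries.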
